A study of Mus musculus with 9 samples.

Results

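The genes that flank Atpif1 on mouse chromosome 4 were examined for differences carried along with the targeted allele. They were chosen by position, within about 4 Mb on either side of the Atpif1 probe (mm9). Every named or unnamed gene of the array with a probe in that stretch of chromosome 4 was taken. Atpif1 itself, Hdac1 and the gene families whose names begin with Rpl, Rps, Kcn, Psm, Nduf or Mrp were left out. This gave 208 genes with 270 probes, out of 31093 gene names with 39429 probes on the array. Of the 208 names, 165 matched a RefSeq symbol or synonym, and all 165 were genes of chromosome 4.

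Hippocampal RNA came from 9 male mice aged 9 months and labelled C57BL/6J, 3 each of the genotypes IF1-KO, CRL (control) and IF1-TG, and the RNA of each mouse was read on its own one-colour Agilent array. IF1-KO is a conditional knockout of Atpif1, the gene of IF1, an inhibitor of the mitochondrial ATP synthase. Its allele descends from the Atpif1 tm1a line on C57BL/6NTac, lost the gene-trap cassette by crossing to an ACTFLPe line of mixed B6 and SJL origin, and loses an exon to the Camk2a-cre T29-1 transgene, which is active mainly in excitatory forebrain neurons, so other hippocampal cells keep the gene. IF1-TG carries 2 transgenes, Camk2a-tTA and a tetO-driven human IF1, and has the endogenous Atpif1 locus. Both transgenic lines are named as of B6 and CBA origin, and the study kept its mice on C57BL/6J. The cultured neurons of the study came from 2 breedings. In one, CRL embryos were Atpif1+/+ with Cre and IF1-KO embryos Atpif1 lox/lox with Cre. In the other, between the IF1-TG parent lines, control embryos were wild type or carried the tTA transgene alone. The labels of the arrays call the control mice CRL and give neither their alleles nor their parents. The 3 arrays of a genotype were separate mice.

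A chromosome passed on from a targeted stem cell brings the neighbours of the targeted gene with it. Repeated crossing to another strain shortens this flanking segment slowly, because recombination close to the selected allele is rare. Variants in the segment can change the expression of genes near the target in knockouts and not in controls, and an inserted or deleted element can also act on its neighbours. Such passenger differences would be looked for first in IF1-KO against both other genotypes. The strain origin of the segment was not typed in these data, and C57BL/6N and C57BL/6J differ at far fewer positions than unrelated strains do.

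A level below is the log2 processed intensity of a probe minus that of the 75th percentile on the same array, and a difference is between mean levels on that log2 scale. A gene was called in a comparison when at least 1 of its probes differed at least 1.5-fold with an unadjusted P value below 0.05 in a limma fit of all 9 arrays. The arrays lay on 3 slides. Replicates 1 and 2 of IF1-TG made up slide 1. On slide 2 were replicate 1 of IF1-KO, replicate 3 of IF1-TG and the first pair of CRL arrays, and on slide 3 CRL replicate 3 with the remaining IF1-KO arrays. The share of probes well above background was 71.2% to 73.0% on the IF1-KO arrays, 72.4% to 74.9% on the CRL arrays and 66.8% to 69.7% on the IF1-TG arrays. No spot was saturated. The markers of excitatory neurons and of hippocampal fields were all detected on the arrays (4 of 4 and 5 of 5). Choroid plexus markers (Ttr, Kl and Folr1) varied widely within each genotype, with a summed linear signal of 1.737 to 92.52 on the IF1-KO arrays, 2.515 to 114.6 on the CRL arrays and 4.344 to 170.2 on the IF1-TG arrays.

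The targeted gene was read by a single probe on the minus strand of chromosome 4, from 132086507 to 132086566. The middle of this probe is shown because every distance below is counted from it, together with the middle of each probe of the 3 flanking genes called in IF1-KO against the other genotypes. Each line gives the central 30 of 60 bases as printed on the array, 5′ to 3′, in lower case throughout because no base is singled out.
Atpif1, minus strand, chr4:132086522-132086551: cgtctgtagacacatggctttgaatgatta
Laptm5, first probe, plus strand, chr4:130490800-130490829: agcaatagttcctggtgtcagtttatactc
Laptm5, second probe, plus strand, chr4:130490908-130490937: caattccttcaaatagcttgcttaaatagc
Trnp1, first probe, minus strand, chr4:133047032-133047061: tcccaactatatacacgcaagaagaataaa
Trnp1, second probe, minus strand, chr4:133047538-133047567: cttcccatacactgtatttgcctttgctga
Pithd1, first probe, minus strand, chr4:135534728-135534757: tcagtctgaaccgagacattacaggagaat
Pithd1, second probe, minus strand, chr4:135531721-135531750: tggggaaggtcttacacagtctagccaaat
The exon in which each probe lies was not determined here, so it is not known whether the Atpif1 probe lies in the deleted exon.

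In the IF1-KO group the Atpif1 level was 5.20 for replicate 2, 5.53 for replicate 3 and 6.44 on the array labelled IF1-KO replicate 1. On the CRL arrays it was 6.32, 6.34 and 6.19 and on the IF1-TG arrays 6.43, 6.39 and 6.51. Replicates 2 and 3 of IF1-KO lay below all other arrays, whereas the array labelled IF1-KO replicate 1 lay within the IF1-TG range and went against its label. The difference between IF1-KO and the mean of the other genotypes was -0.64 (standard error 0.24, unadjusted P = 0.0253 and adjusted P = 0.987 from limma), with an exact permutation P of 0.0714. Leaving out the array labelled IF1-KO replicate 1 moved it to -1.002 (unadjusted P = 7.28e-05 from limma). Without replicate 2 or 3 of IF1-KO it was -0.38 or -0.54 and the call was lost. The call was also lost with slide as a fixed block (-0.37, unadjusted P = 0.170 from limma) and with normexp correction and quantile normalization (-0.54). Within slide 2 the array labelled IF1-KO replicate 1 stood 0.05 above the mean of the 3 others, and within slide 3 the remaining IF1-KO arrays stood 0.83 below CRL replicate 3 (difference -0.83). Every direction drawn from IF1-KO below therefore rests in part on 1 array that the targeted gene does not set below the other genotypes. Counts of calls without it are given.

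**Figure D1:**
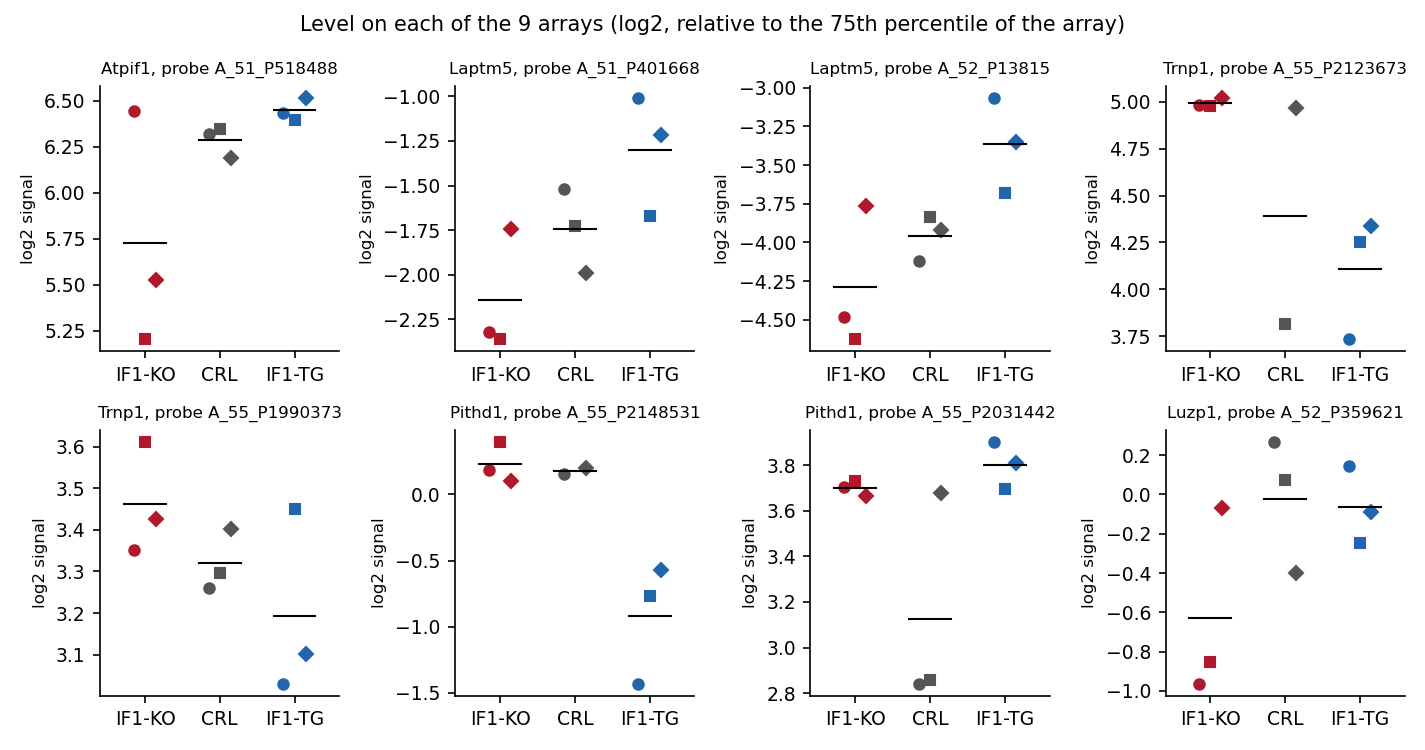
Level of Atpif1, of both probes of Laptm5, Trnp1 and Pithd1, and of 1 probe of Luzp1 on each array (log2, with the 75th percentile set to 0). Circles, squares and diamonds are replicates 1, 2 and 3, black lines are genotype means, and each panel has its own axis, which does not start at 0. The array labelled IF1-KO replicate 1 lies within the IF1-TG range for Atpif1, at 6.44, and CRL replicate 3 lies with the IF1-KO arrays for Trnp1, at 4.97.

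The flanking genes were called in IF1-KO at a rate close to that of all genes on the array. Of the 208 genes, 180 (86.5%, with 232 probes) passed the filter on dim probes, which asks that some genotype has all 3 arrays well above background, compared with 70.4% of all gene names, and the other members are not described further. Against the other genotypes 3 of 180 genes were called in IF1-KO (1.67%), while 1.48% of the 21905 genes tested were called. Laptm5 was lower and Trnp1 and Pithd1 were higher. Over all genes tested, 0.730% were called higher and 0.758% lower. On the rest of chromosome 4, 17 of 1159 genes were called (1.47%). At an unadjusted P value below 0.05 alone, 6 flanking genes differed (3.33%), while 4.26% of all genes tested did. The smallest adjusted P value of a flanking gene was 0.987 from limma. The count was 0 without IF1-KO replicate 2, when 0.968% of all genes were called, and 5 when CRL replicate 3, or replicate 2 or replicate 3 of IF1-TG, was left out, when 3.15%, 2.08% and 2.61% of all genes were called. Fitting slide as a fixed block, or taking the mean of a gene's probes, left 1 gene (0.556%), when 1.76% and 1.15% of all genes were called, and there were 8 (3.85%) without the filter on dim probes, above the 2.46% of all genes called then.

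The typical difference was small. The median difference of the 180 genes in IF1-KO against the other genotypes was -0.01 on the log2 scale (all genes tested -0.01), and the median size regardless of direction was 0.10 (all genes tested 0.12). The median standard deviation between replicates was 0.23 for the flanking genes and 0.24 for all genes. Of the 180 genes, 82 were above 0. For 124 genes (68.9%, all genes tested 59.7%) the 95% interval of the difference lay within a 1.5-fold change in either direction. For the other flanking genes a difference of that size lay inside the interval, given 3 arrays per genotype. The 3 IF1-KO arrays did not overlap the other 6 at 1 of the 178 genes with a value on every array (0.562%, while 1.42% of all genes tested did not overlap), which was Clic4.

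**Figure D2:**
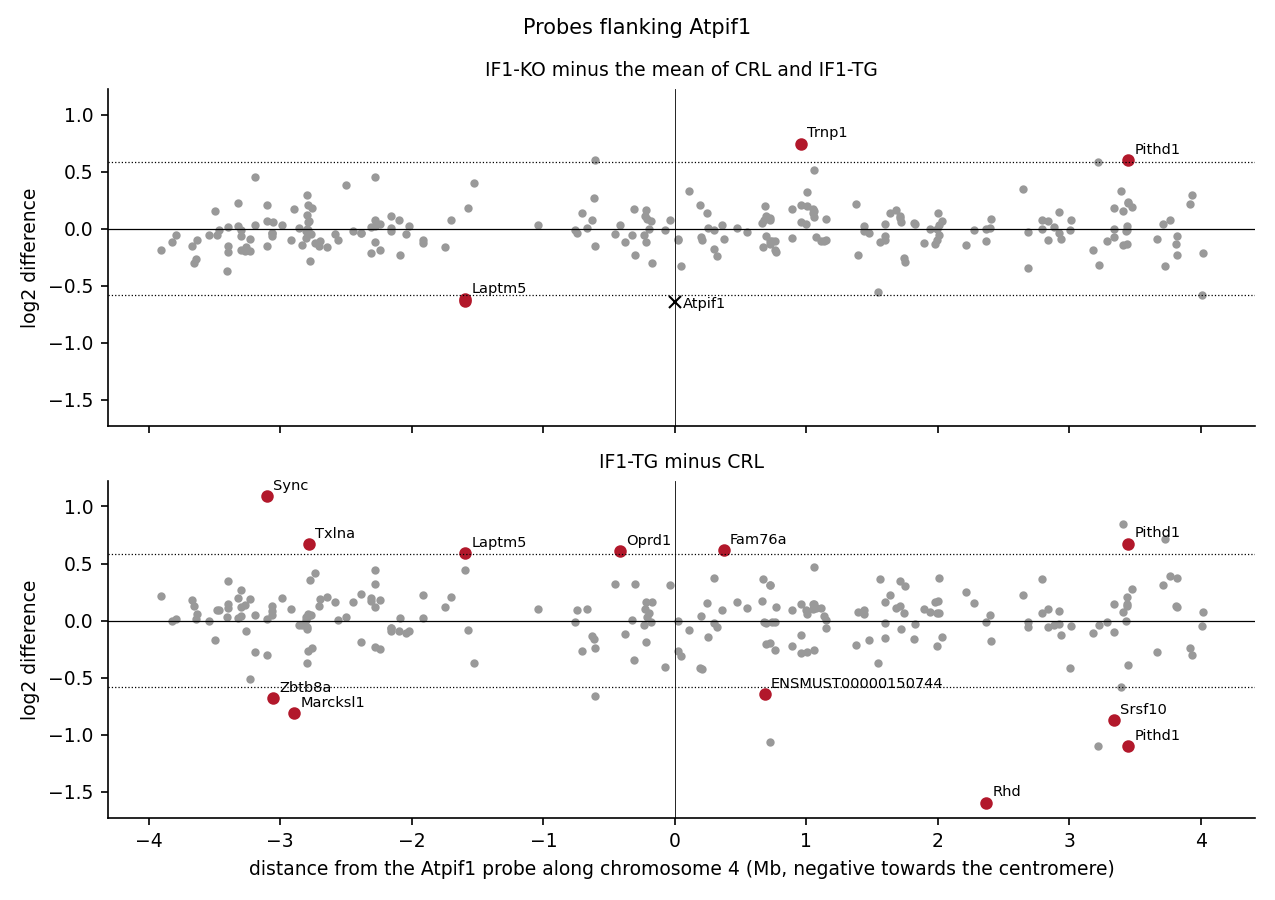
Difference in level (log2) of each of the 232 probes of flanking genes against its distance from the Atpif1 probe in Mb, for IF1-KO minus the mean of the other genotypes and for IF1-TG minus CRL. Red points were past both thresholds, dotted lines mark a 1.5-fold change and the cross is Atpif1. The probes of the 3 genes called in IF1-KO lie at -1.6, 1.0 and 3.4 Mb.

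By distance, each bin held at most 1 call, where 1.48% of all genes were called. Within 1 Mb of the Atpif1 probe 1 of 47 genes was called in IF1-KO against the other genotypes (Trnp1), between 1 and 2 Mb 1 of 37 (Laptm5), between 2 and 3 Mb 0 of 46, where limma gave 1 gene an unadjusted P value below 0.05, and beyond 3 Mb 1 of 50 (Pithd1). On the side of the centromere 1 of 83 genes was called and on the side of the telomere 2 of 97. The median size of the difference was 0.10, 0.11, 0.07 and 0.14 from the nearest to the farthest of these distances. At the edges of the window, the outermost inside were the transcript ENSMUST00000148247 (difference -0.18) and the second probe of Luzp1 (-0.21). Those just outside were Hmgb4os (0.07) and a further probe of Luzp1 (-0.10).

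The 10 genes nearest to the Atpif1 probe, which were taken whatever their values, showed no call in IF1-KO against the other genotypes. Of all genes tested 1.48% were called, a share at which 10 genes would usually hold none. They lie within 198.6 kb. Dnajc8, a J-domain protein that works with splicing factors, is the nearest, at 22.8 kb. Its level was 1.51, 1.59 and 1.39 on the IF1-KO arrays, 1.68, 1.499 and 1.59 on the CRL arrays and 1.49, 1.59 and 1.70 on the IF1-TG arrays. The groups overlapped, with a difference of -0.10 (95% interval -0.32 to 0.13). Sesn2, a stress-induced regulator of nutrient signalling at 37.6 kb on the other side, was at -0.90, -0.74 and -0.70 on the IF1-KO arrays, -1.07, -0.88 and -1.10 on the CRL arrays and -0.89, -0.83 and -0.39 on the IF1-TG arrays. IF1-TG replicate 3 was the highest array and the difference was 0.08 (95% interval -0.23 to 0.38).

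Rcc1, the nucleotide exchange factor of the nuclear GTPase Ran, was the steadiest of these genes, with a difference of 0.00 (95% interval -0.22 to 0.22). Snhg3, a host transcript of small nucleolar RNAs, and Xkr8, a phospholipid scramblase, differed by 0.07 and -0.07. Med18, a subunit of the Mediator complex, differed by -0.01 (95% interval -0.48 to 0.46). Phactr4, a regulator of protein phosphatase and actin, differed by -0.30 (95% interval -0.71 to 0.11), and Eya3, a transcriptional coactivator with phosphatase activity, by 0.20 (95% interval -0.36 to 0.77), where IF1-TG replicate 2 stood below the others at 0.32. The transcript 5830409B07Rik differed by 0.33 (95% interval -0.28 to 0.94), with IF1-KO replicate 1 the highest array. Ptafr, the receptor of platelet-activating factor on myeloid cells, was well above background on 1 IF1-KO array, 3 CRL arrays and 0 IF1-TG arrays. It passed the filter on dim probes only through CRL, so no size is given for its difference. For 6 of the 10 genes the 95% interval lay within a 1.5-fold change.

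**Figure D3:**
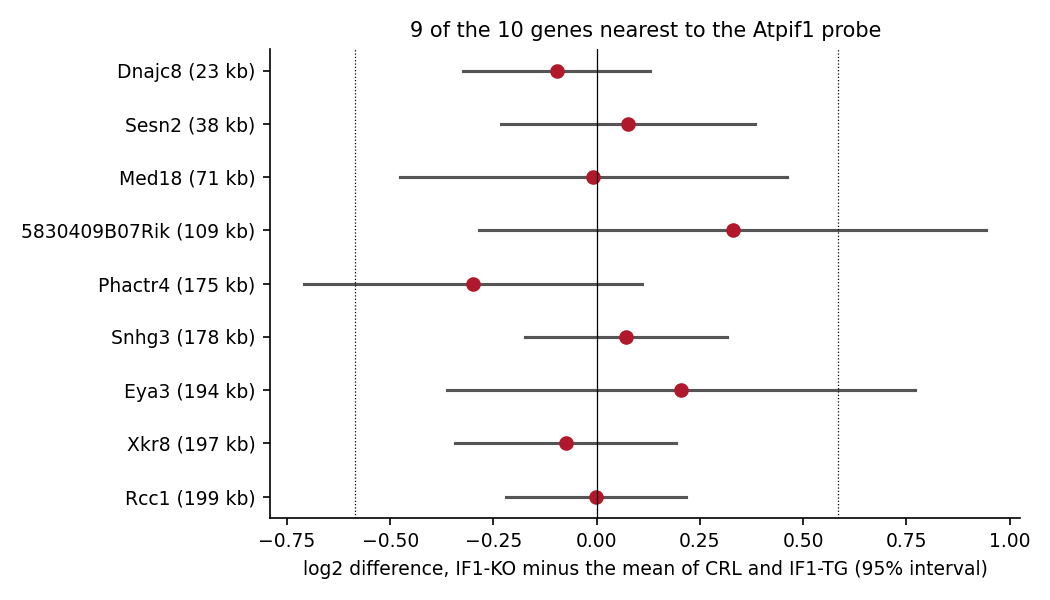
Difference in level (log2) between IF1-KO and the mean of CRL and IF1-TG for 9 of the 10 genes nearest to the Atpif1 probe, with the 95% interval from limma, ordered by distance in kb. Ptafr, which was not well above background on every array of any genotype but CRL, is left out. Dotted lines mark a 1.5-fold change, and every interval drawn includes 0.

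Laptm5, 1.6 Mb from Atpif1, encodes a lysosomal membrane protein of haematopoietic cells, which in the brain are mainly microglia. At its first probe the level was -2.32, -2.36 and -1.74 on the IF1-KO arrays, -1.52, -1.72 and -1.99 on the CRL arrays and -1.01, -1.67 and -1.22 on the IF1-TG arrays. IF1-KO replicates 1 and 2 were the lowest arrays, and IF1-KO replicate 3 lay within the CRL range. The difference from the other genotypes was -0.62 (standard error 0.20, unadjusted P = 0.0144 and adjusted P = 0.987 from limma; exact permutation P = 0.0476). At the second probe the level was -4.48, -4.63 and -3.77 on the IF1-KO arrays, -4.12, -3.83 and -3.92 on the CRL arrays and -3.07, -3.68 and -3.35 on the IF1-TG arrays. The order of the genotypes was the same and the difference was -0.63 (standard error 0.21, unadjusted P = 0.0164 from limma). The difference from IF1-TG was -0.84 and -0.93 at the first and second probe (unadjusted P = 0.00621 and 0.00475 from limma), and that from CRL was -0.40 and -0.34, which did not pass the thresholds. IF1-TG stood above CRL by 0.45 and 0.59, and the second probe was called in that comparison.

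The Laptm5 difference was uneven between slides. The difference was -0.83 and -0.71 within slide 2, which held the array labelled IF1-KO replicate 1, and -0.06 and -0.28 within slide 3. The call against the other genotypes was lost at both probes without replicate 1 or 2 of IF1-KO or replicate 1 of IF1-TG, with differences of -0.53 and -0.54, -0.51 and -0.46, and -0.55 and -0.56, and the call against IF1-TG remained without IF1-KO replicate 1 (-0.75 and -0.83). With slide as a fixed block it was also lost, although the differences were as large (-0.63 and -0.72, unadjusted P = 0.0737 and 0.0536 from limma). The block lost the call against IF1-TG at the first probe (-0.89) and not at the second (-1.06). With normexp correction and quantile normalization the differences were -0.51 and -0.34, which lost the call at both probes, and the call against IF1-TG was lost at the second probe (-0.47). The summed linear signal of the microglial markers with a value on every array (Aif1, Csf1r and P2ry12, 3 of 4 listed) was 14.80 to 17.05 on the IF1-KO arrays, 17.66 to 18.16 on the CRL arrays and 17.71 to 19.39 on the IF1-TG arrays. The sum was lowest in IF1-KO, as Laptm5 was, but it followed mainly Csf1r, the brightest of the markers, which differed by -0.22 from the other genotypes, while Aif1 differed by -0.03, Cx3cr1 by -0.06 and P2ry12 by 0.29. The array labelled IF1-KO replicate 1, among the lowest for Laptm5, had the highest sum of the IF1-KO arrays. Of the 4 markers, 0 were called in IF1-KO against the other genotypes and limma gave 1 of them an unadjusted P value below 0.05. Their part in the Laptm5 result was not tested. In tissue RNA, fewer cells of a type and less RNA per cell cannot be told apart.

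Trnp1, 1.0 Mb from Atpif1, encodes a nuclear protein that regulates the division of neural progenitors. At its first probe the level was 4.98, 4.98 and 5.02 on the IF1-KO arrays, 3.81 and 4.97 on CRL replicates 2 and 3 and 3.73, 4.25 and 4.34 on the IF1-TG arrays. The spot of CRL replicate 1 had been marked as an outlier in the deposited data and was left out of the fit; its value was 4.102. The IF1-KO arrays lay close together above the others, but CRL replicate 3 was level with them. The difference was 0.75 (standard error 0.27, unadjusted P = 0.0252 from limma), and 0.80 with the outlier spot kept. The second probe gave 3.35, 3.61 and 3.43 on the IF1-KO arrays, 3.26, 3.30 and 3.40 on the CRL arrays and 3.03, 3.45 and 3.102 on the IF1-TG arrays, where the groups overlapped. Its difference was 0.21 (unadjusted P = 0.130 from limma). At the first probe the difference was 0.91 within slide 2 and 0.03 within slide 3. The call at this probe was lost without any of the IF1-KO arrays in turn (differences 0.75, 0.75 and 0.73), without CRL replicate 2 (0.46) and with slide as a fixed block (0.42). Against IF1-TG it differed by 0.89 (unadjusted P = 0.0187 from limma). This call was lost without the first IF1-TG array (0.70) and with slide as a fixed block (0.32, unadjusted P = 0.491 from limma).

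Pithd1, 3.4 Mb from Atpif1, encodes a protein with a proteasome-interacting thioredoxin domain, and its probes disagreed. At the first probe the level was 0.19, 0.39 and 0.10 on the IF1-KO arrays, 0.15 and 0.20 on CRL replicates 1 and 3 and -1.43, -0.77 and -0.57 on the IF1-TG arrays. The spot of CRL replicate 2, at -0.28, had been marked as an outlier and was left out of the fit. The IF1-KO and CRL arrays shared a range and the IF1-TG arrays were lower, so the difference of 0.60 from the other genotypes (standard error 0.20, unadjusted P = 0.0192 from limma) was one from IF1-TG (1.15, unadjusted P = 0.00109 from limma) and not from CRL (0.05). At the second probe the level was 3.71, 3.73 and 3.66 on the IF1-KO arrays, 2.84, 2.86 and 3.68 on the CRL arrays and 3.90, 3.69 and 3.81 on the IF1-TG arrays. There CRL replicates 1 and 2 were the low arrays, and IF1-KO differed from the others by 0.24 (unadjusted P = 0.236 from limma). From CRL alone IF1-KO differed by 0.57 at this probe, under the fold threshold. IF1-TG was therefore called lower than CRL at the first probe (-1.10) and higher at the second (0.67). The call of IF1-KO against the other genotypes was lost without the second IF1-KO array (0.52), without the first IF1-TG array (0.47) and with slide as a fixed block (0.40). Within slides 2 and 3 the difference was 0.39 and 0.05. The block also lost the call against IF1-TG (0.76, unadjusted P = 0.0677 from limma).

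In the pairwise comparisons, which share their arrays with the one above, the share of flanking genes called was again close to or under that of all genes tested. Between IF1-KO and CRL 2 of 180 genes were called (1.11%, all genes tested 1.35%), both lower in IF1-KO. The count was 0 without IF1-KO replicate 2, when 1.20% of all genes were called, and 9 without CRL replicate 3, when 4.59% of all genes were called. It was 1 without replicate 1 or 2 of either CRL (0.822% and 1.15% of all genes) or IF1-TG (1.47% and 1.35%). Between IF1-KO and IF1-TG 5 genes were called (2.78%, all genes tested 4.73%), namely Laptm5 and Sync lower and Trnp1, Pithd1 and Srsf10 higher in IF1-KO. Leaving out replicate 1, 2 or 3 of IF1-TG gave 8, 8 and 13 (3.99%, 7.76% and 7.18% of all genes). Between IF1-TG and CRL, the pair without IF1-KO arrays, 11 genes were called (6.11%, all genes tested 5.59%), and 7 without CRL replicate 1 (4.46% of all genes). The smallest adjusted P value of a flanking gene from limma was 1.00, 0.590 and 0.329 in these 3 comparisons. Slide 1 held only IF1-TG arrays, so for those arrays slide and genotype cannot be told apart.

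**Figure D4:**
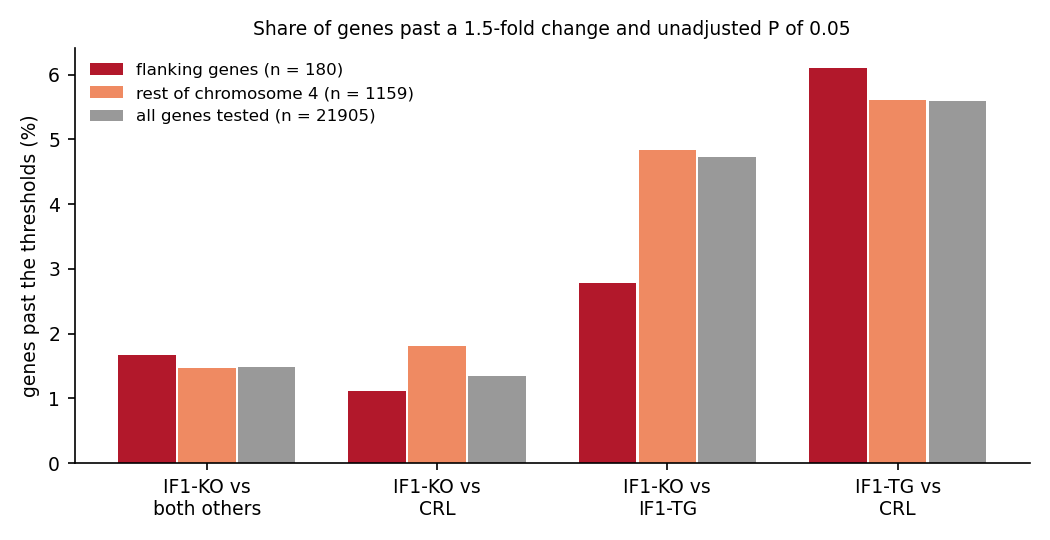
Share of genes (%) past a 1.5-fold change and an unadjusted P value of 0.05 in each comparison, for the 180 flanking genes, the other 1159 genes of chromosome 4 and all 21905 genes tested. For IF1-KO against both other genotypes the shares are 1.67%, 1.47% and 1.48%, and the 4 comparisons share arrays.

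Luzp1 and Rhd were the genes called between IF1-KO and CRL. Luzp1, a leucine zipper protein that binds actin, lies at the telomere edge of the window, 4.0 Mb from Atpif1. Its level was -0.96, -0.85 and -0.07 on the IF1-KO arrays, 0.27, 0.07 and -0.40 on the CRL arrays and 0.14, -0.25 and -0.09 on the IF1-TG arrays. IF1-KO replicates 1 and 2 were low and IF1-KO replicate 3 was above CRL replicate 3. Against CRL it differed by -0.61 (standard error 0.27, unadjusted P = 0.0498 from limma), and the difference from both other genotypes was just under 1.5-fold (-0.585). Within slide 2 the difference from the others was -1.05 and within slide 3 it was -0.06. Its second probe differed by -0.21 from the other genotypes. The call against CRL was lost when IF1-KO replicate 1 or 2, CRL replicate 1 or 2, or any IF1-TG array was left out, with differences of -0.44 to -0.61. It was also lost with outlier spots kept, with either quantile normalization, without the filter on dim probes and with slide or the replicate number as a block (-0.45 to -0.61).

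Rhd, the Rh blood group antigen of red cells, was well above background on all 3 CRL arrays and on 0 IF1-KO and 0 IF1-TG arrays. Its level on the CRL arrays was -6.49, -6.04 and -7.16. At these dim levels the mean of IF1-KO was at least 1.40-fold lower than that of CRL, a bound that takes no account of the spread between arrays. The gene passed the filter on dim probes only through CRL, the genotype in which it was high, so its calls against CRL are given as a description. The call against CRL was lost without IF1-KO replicate 2, CRL replicate 1 or CRL replicate 2 and with slide as a fixed block. It was also lost with normexp correction and quantile normalization, where the difference was -0.13. The summed linear signal of blood markers (Hba-a1, Hbb-b1 and Alas2) was 16.25 to 35.97 on the IF1-KO arrays, 13.14 to 30.05 on the IF1-TG arrays, and 9.707, 154.3 and 7.479 on the CRL arrays. CRL replicate 2 was the highest and CRL replicate 3 the lowest array of that genotype both for these markers and for Rhd. Their part in the Rhd result was not tested.

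The other 2 genes called between IF1-KO and IF1-TG were also called between IF1-TG and CRL. Srsf10, a splicing factor of the SR family, was at -1.11, -0.79 and -0.74 on the IF1-KO arrays, -0.49, -0.71 and -0.66 on the CRL arrays and -1.87, -1.41 and -1.20 on the IF1-TG arrays. The IF1-TG arrays were the lowest, with differences of 0.61 for IF1-KO against IF1-TG and -0.26 for IF1-KO against CRL. Sync, which encodes the intermediate filament protein syncoilin, was at -5.54, -5.79 and -5.47 on the IF1-KO arrays, -6.50, -5.82 and -5.68 on the CRL arrays and -5.30, -4.28 and -5.15 on the IF1-TG arrays. The IF1-TG arrays were the highest, with differences of -0.69 for IF1-KO against IF1-TG (unadjusted P = 0.0486 from limma) and 0.40 for IF1-KO against CRL. The call of Sync was lost without any 1 of IF1-KO replicates 1, 2 and 3, CRL replicates 2 and 3 and IF1-TG replicate 2 (-0.38 without the last, and -0.60 to -0.76 in the other cases), and that of Srsf10 without replicate 2 or 3 of IF1-KO or replicate 1 of IF1-TG (0.57, 0.54 and 0.42). With slide as a fixed block both calls were lost, with differences of 0.23 for Srsf10 and -0.59 for Sync (unadjusted P = 0.425 and 0.292 from limma), and with normexp correction and quantile normalization that of Sync was lost (-0.30). On slide 2, the only slide with both genotypes, IF1-KO replicate 1 and IF1-TG replicate 3 were at -1.11 and -1.20 for Srsf10. For Sync these arrays were at -5.54 and -5.15. Sync was also not called with quantile normalization alone, without the filter on dim probes, with slide as a random block, with the trend and robust options of eBayes and with outlier spots kept (-0.69 to -0.72).

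Besides Laptm5, Pithd1, Rhd, Srsf10 and Sync, 6 genes were called between IF1-TG and CRL. The call of Rhd there has no size, since IF1-TG was not above background and its limit allows no difference. Marcksl1, an actin-regulating kinase substrate, was lower in IF1-TG, with levels of 1.61, 0.95 and 1.61 on the IF1-TG arrays, 2.36, 2.14 and 2.11 on the CRL arrays and 2.09, 2.00 and 1.83 on the IF1-KO arrays. Its difference between IF1-TG and CRL was -0.81 (unadjusted P = 0.00251 and adjusted P = 0.378 from limma), and all IF1-TG arrays lay below the others. Zbtb8a, a zinc finger protein, differed by -0.68 and the transcript ENSMUST00000150744 by -0.64. Oprd1, the delta opioid receptor, differed by 0.61, Fam76a by 0.62 and Txlna, a syntaxin-binding protein, by 0.67. In IF1-KO against the other genotypes these 6 genes were not called, with differences from -0.09 to 0.20.

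Among the genes with the largest differences in IF1-KO against the other genotypes, most rested on a few arrays. Clic4, a chloride intracellular channel protein, was the gene whose arrays did not overlap, at 1.09, 0.66 and 1.17 on the IF1-KO arrays, 1.27, 1.29 and 1.42 on the CRL arrays and 1.21, 1.45 and 1.27 on the IF1-TG arrays. Its difference was -0.35 (standard error 0.13, unadjusted P = 0.0300 from limma), under the fold threshold. Its exact permutation P of 0.0119 is the smallest that 84 choices of 3 arrays can give. The gene was named for its non-overlap, so this P value is a description. The second probe of Clic4 differed by -0.03. Pef1, a calcium-binding penta-EF-hand protein, was at 1.47, 3.13 and 2.86 on the IF1-KO arrays, 1.68, 1.99 and 2.77 on the CRL arrays and 1.75, 2.05 and 1.96 on the IF1-TG arrays. The arrays of slide 3, which are CRL replicate 3 and the last pair of IF1-KO arrays, were the 3 highest. Its second probe differed by 0.08.

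The rest of the genes with the largest differences were not called. Il22ra1, a subunit of the interleukin-22 receptor, differed by 0.58 (standard error 0.47), with IF1-TG replicates 1 and 2 at -7.16 and -7.53 against -5.71 to -5.10 elsewhere. Both low values lay under the lowest level well above background on those arrays (-6.55 and -6.82), so the size of this difference is uncertain. Yars, the tyrosyl-tRNA synthetase, differed by 0.45 (standard error 0.36), with CRL replicate 2 and IF1-TG replicate 1 low. Aim1l, a crystallin-family gene now named Crybg2, differed by -0.56 (standard error 0.37), and Tcea3, a transcription elongation factor, by -0.32 (standard error 0.43). The unnamed probe A_55_P2172364 was well above background on 3 IF1-KO, 2 CRL and 0 IF1-TG arrays. It passed the filter only through IF1-KO, where it was high, and no size is given for its difference.

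The array labelled IF1-KO replicate 1, which the Atpif1 probe does not set below the other genotypes, was also left out. The share of flanking genes called was then below that of all genes in each comparison with IF1-KO. Against the other genotypes 2 flanking genes were called (1.11%, all genes tested 2.90%), Pef1 and Pithd1, of which 1 was also called with all arrays. Against CRL 3 were called (1.67%, all genes tested 2.11%), Pef1, Ptafr and Rhd, and against IF1-TG 7 (3.89%, all genes tested 5.79%). The smallest adjusted P value of a flanking gene from limma was 0.895, 0.982 and 0.653. The difference of Pef1 against the other genotypes was then 0.96 (standard error 0.27, unadjusted P = 0.00814 from limma), on 2 IF1-KO arrays of the same slide. The call of Ptafr, a gene that passed the filter only through CRL, is like that of Rhd a description.

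The flanking genes have many roles, and 117 of the 180 were sorted by role. The counts below stand beside 1.48% of all genes called and 4.26% at an unadjusted P value below 0.05. Among genes of RNA processing and translation, 0 of 21 were called in IF1-KO against the other genotypes and limma gave none an unadjusted P value below 0.05, with differences from -0.23 (Zcchc17) to 0.45 (Yars). Both counts were also 0 for the 19 genes of transcription and chromatin, which range from -0.32 (Tcea3) to 0.20 (Eya3), and for the 16 receptors and signalling enzymes, which range from -0.30 (Phactr4) to 0.21 (Htr1d, a serotonin receptor). Hpca, which encodes the neuronal calcium sensor hippocalcin, was at 7.18, 6.70 and 7.07 on the IF1-KO arrays, 6.97, 6.97 and 6.81 on the CRL arrays and 6.77, 7.28 and 7.50 on the IF1-TG arrays, which overlap. Among immune cell genes 1 of 10 was called (Laptm5, lower), with a median of 0.00. Among genes of the cytoskeleton and membrane traffic 0 of 27 were called and limma gave 2, Luzp1 and Clic4, an unadjusted P value below 0.05. Stmn1, the microtubule regulator stathmin, differed by 0.00 (standard error 0.12). Of 19 genes of metabolism and transport 1 was called (Pithd1, higher), and of 5 matrix and epithelial genes 0 were called and limma gave 0 an unadjusted P value below 0.05.

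Where a flanking gene had several probes, they often disagreed about direction. This could be examined at 47 genes. All probes of the gene had the same sign in IF1-KO against the other genotypes at 26 of them, the median spread between the probes of a gene was 0.14 on the log2 scale, and 0 genes had a spread over 1.5-fold. The spread was 0.54 for Trnp1, 0.37 for Luzp1 and 0.36 for Pithd1, the calls of which rest on 1 probe each. Of the genes called in IF1-KO against the other genotypes, Laptm5 was the one with every probe past the thresholds.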

How the data were processed

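For each of 9 one-colour arrays the authors deposited intensities from Agilent Feature Extraction 10.7.3.1, with the background subtracted within each array and no normalization between arrays, and probe positions on mm9. The submitters' processing notes name limma. The processed intensity was taken to log2 minus the 75th percentile of its array, leaving out control spots and spots marked as outliers and averaging repeat spots. A probe was kept if some genotype had all 3 arrays well above background there (27991 of 39429). All 9 arrays entered 1 limma fit (3.58.1, R 4.3.3) with genotype, no covariate, eBayes and Benjamini-Hochberg adjustment over all kept probes, which was tested on simulated data. The thresholds are those of the study's methods. IF1-KO was compared with the mean of the CRL and IF1-TG means, and the genotypes in pairs. A gene is given by its brightest kept probe unless another is stated. The exact permutation tests are two-sided.

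Members and lists were chosen with earlier results of these data known. Hpca and Luzp1 were moved between role lists after their values had been seen. The genes named are Atpif1, the 10 nearest genes, genes called in a comparison, the 5 largest increases and 5 largest decreases, genes whose arrays did not overlap, and the extremes of the role lists; Hpca, Stmn1 and the genes called between IF1-TG and CRL alone were named after their values were seen. A fold is a lower bound ("at least") where 0 arrays of the dimmer genotype were well above background. No explanation of a difference was tested.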

Additional observations from a re-analysis of the deposited data

How the results depend on the processing

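The number of flanking genes called in IF1-KO against the other genotypes (3), in IF1-KO against CRL (2), in IF1-KO against IF1-TG (5) and in IF1-TG against CRL (11) is given here in that order where a setting moved it. Without the filter on dim probes the counts were 8, 5, 14 and 18 (3.85%, 2.40%, 6.73% and 8.65% of the flanking genes, and 2.46%, 2.31%, 10.1% and 14.6% of all genes). With slide as a fixed block the first 3 were 1, 0 and 10 (1.76%, 1.07% and 6.42% of all genes). With the mean of a gene's probes they were 1, 1, 2 and 7 (1.15%, 0.986%, 3.46% and 4.04%), and with the unadjusted P value of limma as the sole threshold 6, 5, 12 and 18 (4.26%, 3.23%, 8.86% and 10.4%). In a window of 1 Mb they were 1, 0, 1 and 3 (2.13%, 0.00%, 2.13% and 6.38% of 47 genes), and in a window of 2 Mb the last 3 were 0, 2 and 4 (0.00%, 2.38% and 4.76%), where 1.48%, 1.35%, 4.73% and 5.59% of all genes were called. The count against CRL was 1 with quantile normalization, with probes well above background on all 9 arrays, with slide as a random block, with the replicate number as a block and in a fit of only the 2 genotypes (1.35%, 0.874%, 1.28%, 1.48% and 1.56% of all genes). With normexp correction and quantile normalization it was 1 against CRL and 4 between IF1-TG and CRL (0.735% and 2.57%), and 1 of the 24 named genes had an exact permutation P below 0.05, compared with 2 on the main values; since genes were named in part for their differences, this count is a description. Leaving out each array in turn gave 0 to 5, 0 to 9, 4 to 13 and 7 to 15 called genes (0.968% to 3.15%, 0.822% to 4.59%, 2.78% to 7.76% and 4.46% to 8.72% of all genes), and 0 to 3 named genes by the exact test. The cause of these changes was not tested, beyond the smaller window holding fewer genes and the looser filter testing more.

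Among the genes called in a comparison with IF1-KO, no difference changed sign in that comparison under the alternatives computed per gene, which leave out the fit of only 2 genotypes and the mean of a gene's probes; the genes called between IF1-TG and CRL alone were not followed. The medians of the flanking genes in IF1-KO against the other genotypes stayed between -0.03 and 0.00. Replicate numbers do not pair the arrays, since the correlation of deviations between arrays of the same number ran from -0.165 to 0.116 over 9 pairs, with 1 over 0.1. With the replicate number as a block, the call of Pithd1 against the other genotypes was lost (0.56), as was that of Luzp1 against CRL. Keeping spots marked as outliers, which was chosen after seeing the data, left all 4 counts as they were. With 3 arrays per genotype, modest differences could go undetected.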
